A study of Mus musculus with 8 samples.

Results

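The collagen genes were taken as every entry of the deposited count table whose symbol is Col, a number, the letter a and a second number. The pattern matched 44 of 48440 entries, and each of the 44 is accounted for here. They were sorted by the kind of assembly their products form into 11 fibrillar genes, 6 genes of type IV collagen, which forms basement membranes, and 27 genes of other classes. The table holds RNA-seq counts from purified heart muscle cells of C57BL6/J mice at postnatal day 2, from 1 male and 1 female heart of each of 4 litters, so there are 8 libraries, 4 male and 4 female. All mice were of 1 strain and 1 age, the labels give no treatment or altered gene, and they name no batch, so that litter and any shared day of preparation cannot be told apart. Each library is 1 heart, but the labels do not say how the muscle cells were purified.

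A collagen is built from 3 chains wound into a triple helix, each chain the product of its own gene. Fibrillar collagens such as types I, III and V are cut outside the cell and pack into the fibrils that give heart tissue its tensile strength, and in the heart they are made mainly by fibroblasts. Type IV collagen is not cut in this way and forms the sheet-like network of the basement membrane that surrounds each muscle cell and underlies endothelium. The remaining classes include the microfibrils of type VI, the FACIT collagens that sit on fibril surfaces, and the multiplexins of basement membrane zones.

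Library totals ranged from 14226342 counts in the female of litter 3 to 24910243 in the male of litter 1. Values below are counts per 1000000 after scaling of the library sizes (CPM). The summed level of 8 heart muscle markers was 54840 to 69460 CPM, so the labelled cell type was present in every library, and none of the 8 was at 0. Markers of other cells were far lower but present: 8 fibroblast markers summed to 129.9 to 231.1 CPM, most of it Vim, and 10 endothelial markers to 18.6 to 166.8 CPM. Litter 3 stood apart from the others over the whole table. Of 13771 genes tested, 13.6% were higher and 14.8% lower there than in the mean of the other litters, so the tests of litter and of sex within litters are also given without it.

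Of the 44 collagen genes, 28 had enough counts to be tested: 8 of 11 fibrillar, 6 of 6 type IV and 14 of 27 others. The 16 that were not tested had between 0 and 24 counts in a library. They were the fibrillar Col2a1, Col5a3 and Col24a1, the microfibril Col6a4 and Col6a5, the FACIT Col9a1, Col9a3, Col19a1 and Col22a1, the network-forming Col8a1, Col8a2 and Col10a1, the transmembrane Col17a1 and Col25a1, and Col26a1 and Col28a1. Col6a4, Col6a5, Col10a1 and Col19a1 had counts in only 1 library each, with sums of 2, 1, 1 and 1.

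Collagen RNA in these cells was mostly type IV. All 44 genes together held 0.1205% ± 0.02444 of a library's counts (SD, n = 8), with a range of 0.08999% to 0.1574%. Col4a1, Col4a2 and Col4a5 held 69.4% to 81.4% of those collagen counts, and the 11 fibrillar genes 4.60% to 15.8%. To compare genes, levels were divided by the length of each gene's merged exons. Col4a2 then led with 62.8 ± 15.9 CPM per kilobase (SD, n = 8), followed by Col4a1 with 45.0 ± 11.6 and Col4a5 with 25.6 ± 2.55. These 3 chains kept that order in every library. Col6a2, a chain of the type VI microfibril, came next with 10.5 ± 1.55 CPM per kilobase.

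The first fibrillar gene was Col3a1, at position 5 of the 28 with 4.08 ± 2.26 CPM per kilobase (SD, n = 8). Col1a1 had 3.40 ± 1.80, Col6a1 2.82 ± 0.721, Col5a2 1.67 ± 0.725, Col1a2 1.66 ± 0.924 and Col18a1 1.51 ± 0.978 CPM per kilobase. From Col3a1 down, each gene overlapped the next in this order in its range over libraries. The 5 highest genes kept their order when the longest transcript was used as the length, but Col1a2 then moved from position 9 to 6. Its merged exons are 12426 bases long and its longest transcript 5348. The other tested genes lay at or below 1.39 CPM per kilobase, and the lowest was Col11a1 with 0.0422.

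**Figure D1:**
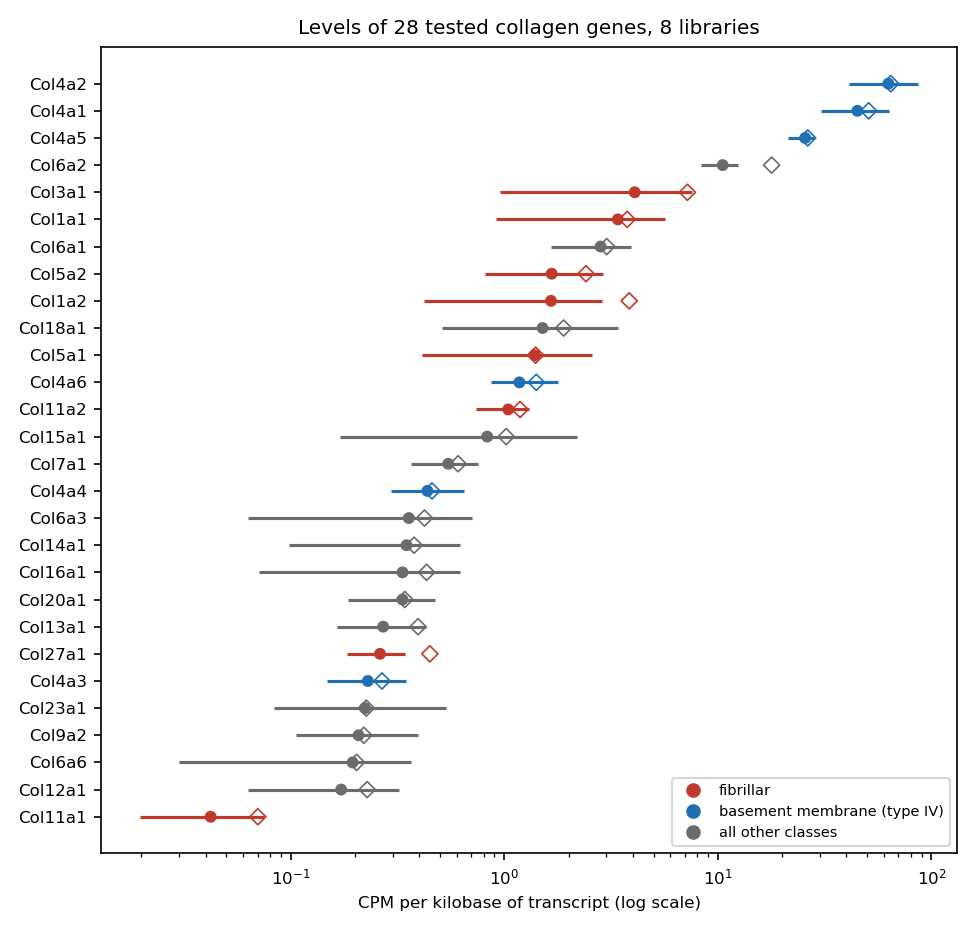
Levels of the 28 tested collagen genes in CPM per kilobase on a log scale. Closed circles are the mean of 8 libraries with the merged exons as length, lines the range over libraries, and open diamonds the mean with the longest transcript as length; the type IV genes Col4a2, Col4a1 and Col4a5 lie above every fibrillar gene.

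Of the 8 tested fibrillar genes, 5 passed the test of litter and 4 the test of sex within litters, as set out below. Col1a1 (chr11:94936224-94953042, GRCm38) encodes the more abundant chain of the type I helix. Its level in the males of litters 1, 2, 3 and 4 was 29.7, 37.1, 9.23 and 36.9 CPM, and in their sisters 17.9, 24.6, 5.98 and 17.2 CPM. Both libraries of litter 3 lay below the other 6, and the male exceeded the female in each of the 4 litters. The sexes overlapped all the same, because the male of litter 3 lay below every female of another litter.

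Col1a2 (chr6:4504814-4541544), the partner chain of type I, had 27.8, 35.6, 6.55 and 33.2 CPM in the males of litters 1 to 4 and 15.0, 23.7, 5.22 and 17.4 CPM in the females. Col3a1 (chr1:45311538-45349706), whose product forms type III fibrils with 1 kind of chain, had 49.3, 74.4, 14.001 and 59.7 CPM in the males and 36.8, 47.8, 9.42 and 29.2 CPM in the females. The pattern was that of Col1a1 in both: litter 3 lowest, and the male above the female in 4 of 4 litters. Exons of Col3a1 overlap those of another annotated gene on the same strand over 1.4% of their length.

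Type V collagen sits inside type I fibrils and limits their width. Col5a1 had 13.96, 21.9, 5.90 and 15.1 CPM in the males of litters 1 to 4 and 9.86, 15.9, 3.51 and 8.26 CPM in the females. Col5a2, which lies next to Col3a1 on chromosome 1 (chr1:45374321-45503282), had 12.8, 27.9, 9.88 and 22.2 CPM in the males and 12.1, 20.98, 7.77 and 14.3 CPM in the females. Litter 3 was again lowest for both genes and each male was above his sister, by only 0.63 CPM for Col5a2 in litter 1. The other 3 tested fibrillar genes were low. Col11a1 ranged from 0.252 to 0.956 CPM, Col11a2 from 5.09 to 8.98 and Col27a1 from 2.38 to 4.48, and none of them passed the litter test or either test of sex.

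Col1a2 and Col3a1 are shown by the 250 bases before their RefSeq starts (GRCm38.p6), because the levels of these genes moved together and their starts differ in the motifs they hold. Both lie on the plus strand, at chr6:4505368-4505617 and chr1:45311288-45311537. In GENCODE, which gave the gene positions, Col1a2 starts earlier, at chr6:4504814, so its window lies inside that span. Capitals mark the motif CCAAT, which reads as ATTGG on the other strand, the motif TATAAA, which reads as TTTATA there, and the motif GGGCGG, which reads as CCGCCC there. No motif overlaps another here.
Col1a2: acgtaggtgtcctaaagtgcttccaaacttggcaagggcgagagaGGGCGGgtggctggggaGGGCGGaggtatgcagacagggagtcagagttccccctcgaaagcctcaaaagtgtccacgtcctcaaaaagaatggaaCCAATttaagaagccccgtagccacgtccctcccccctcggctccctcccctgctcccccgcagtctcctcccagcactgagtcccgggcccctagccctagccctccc
Col3a1: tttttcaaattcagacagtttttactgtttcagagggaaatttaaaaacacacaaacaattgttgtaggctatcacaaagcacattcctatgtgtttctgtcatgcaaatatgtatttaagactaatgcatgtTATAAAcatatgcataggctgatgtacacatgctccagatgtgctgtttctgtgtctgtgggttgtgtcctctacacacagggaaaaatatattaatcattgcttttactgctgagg
The Col1a2 window held 1 CCAAT and 2 GGGCGG, and the Col3a1 window 1 TATAAA and neither of the others. The RefSeq table had a window for 35 of the 44 collagen genes, 38 windows in all. GGGCGG stood in 22 of them (57.9%), against 32.7% of all 32851 windows of this length. CCAAT stood in 13 (34.2%, against 33.8%) and TATAAA in 5 (13.2%, against 12.4%). These matches describe the letters of the windows and nothing more.

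Without litter in the model, none of the 28 collagen genes passed the test of males against females, against 0.0436% of all genes tested, 6 genes (edgeR quasi-likelihood test, Benjamini-Hochberg adjustment). The DESeq2 Wald test also called none, and 2 collagen genes, Col6a6 and Col12a1, had an unadjusted p under 0.05. Among the libraries of each sex the spread was wide. Col1a1 averaged 28.2 ± 13.1 CPM in males and 16.4 ± 7.72 in females, and Col3a1 49.4 ± 25.7 and 30.8 ± 16.2 (SD, n = 4 each). No tested collagen gene had sexes that did not overlap, against 2.07% of all genes tested.

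Compared within litters, 5 of 28 collagen genes (17.9%) were higher in males and none lower, while 0.152% of all genes tested were higher in males in that model (edgeR with litter as a block, Benjamini-Hochberg adjustment). The 5 were the fibrillar Col1a1, Col1a2, Col3a1 and Col5a1 and the FACIT gene Col12a1, whose product binds along fibrils. The log2 fold change of males over females was 0.78 ± 0.09 for Col1a1 (SE, 1.71-fold, adjusted p = 0.00196). It was 0.73 ± 0.09 for Col1a2 (1.66-fold, adjusted p = 0.0042) and 0.67 ± 0.09 for Col3a1 (1.59-fold, adjusted p = 0.00545). Col5a1 was at 0.62 ± 0.10 (1.54-fold, adjusted p = 0.0259) and Col12a1 at 0.98 ± 0.17 (1.98-fold, adjusted p = 0.0454). Each of these genes was higher in the male in 4 of 4 litters. Col1a1, Col1a2 and Col3a1 passed whichever litter was left out. Col5a1 passed only without litter 3 (adjusted p = 0.0332, and 0.0596 to 0.1188 without another litter), and Col12a1 in none of the 4 such fits (adjusted p 0.05725 to 0.2605).

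By class, the median log2 fold change of males over females with litter as a block was 0.65 for the 8 tested fibrillar genes, -0.04 for the 6 type IV genes, 0.09 for the 14 others and -0.0008 for all genes tested. The male was above the female in every litter for 6 of the 8 fibrillar genes, 0 of the 6 type IV genes and 5 of the 14 others, together 11 of 28 against 10.9% of all genes tested. The female was above the male in every litter for none of the 28, against 9.36%. Besides the 4 fibrillar genes called, Col5a2 was at 0.37 ± 0.09 (adjusted p = 0.223) and Col11a1 at 0.82 ± 0.33 (adjusted p = 0.384). Of the others, Col6a6 was at 1.14 ± 0.25 (adjusted p = 0.132) and Col14a1 at 0.79 ± 0.19 (adjusted p = 0.203).

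**Figure D2:**
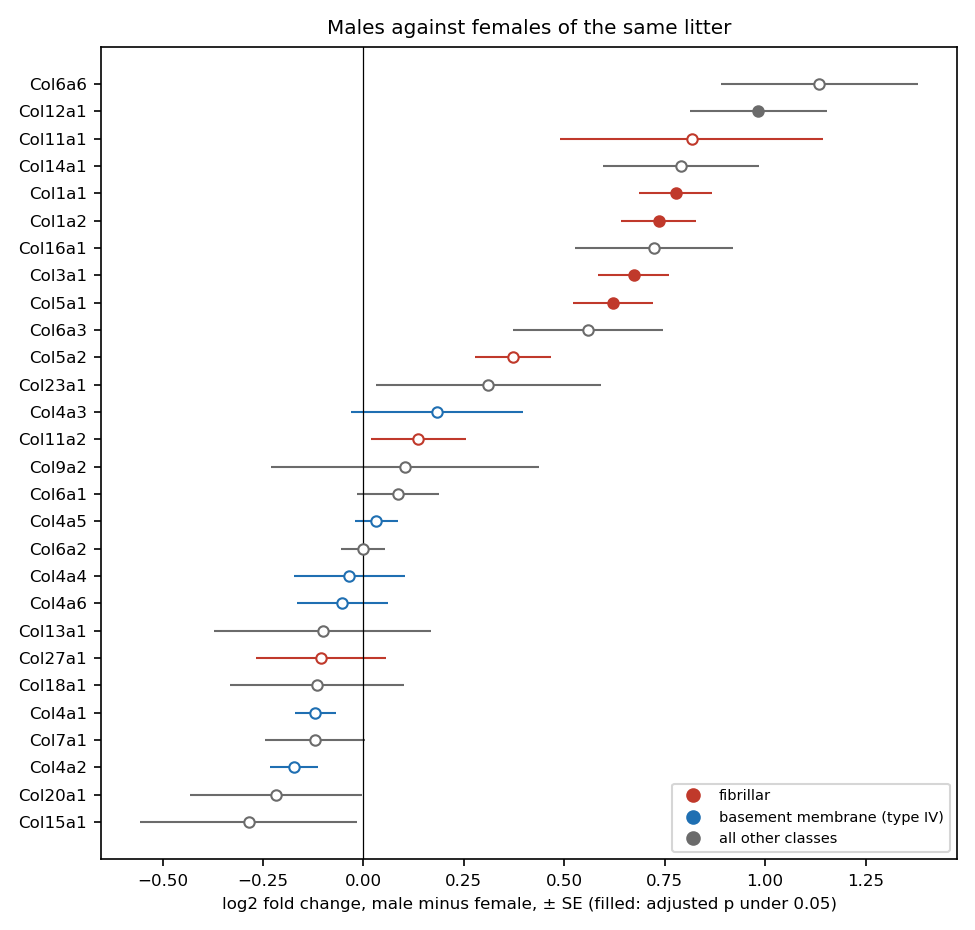
Log2 fold change of males over females with litter as a block, ± SE, for the 28 tested collagen genes; filled points passed an adjusted p of 0.05. Col1a1, Col1a2, Col3a1, Col5a1 and Col12a1 are the filled points, all above 0.6, and the 6 type IV genes (blue) lie between -0.17 and 0.18.

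Some genes of fibroblasts moved in the same comparison. Of 8 fibroblast markers, Dcn at 1.14 ± 0.11 and Postn at 0.86 ± 0.11 passed with males higher (SE; edgeR with litter as a block), and the median of the 8 was 0.46. The summed fibroblast markers, most of it Vim, were higher in the male in 4 of 4 litters, at 162.7, 230.1, 133.0 and 231.1 CPM in the males of litters 1 to 4 and 158.1, 222.9, 129.9 and 142.4 CPM in the females. Vim itself was at -0.07 ± 0.10 and higher in the female in 3 of 4 litters. Of the others that did not pass, Tcf21 was at 0.08 ± 0.32, Ddr2 at 0.12 ± 0.13 and Pdgfra at 0.36 ± 0.20. Lum was at 0.56 ± 0.18 and Dpt at 0.90 ± 0.16. Of 10 endothelial markers, Cldn5 alone passed, lower in males, and their median was -0.71. Of 5 tested epicardial markers none passed, with a median of 0.81. Of 3 tested valve and tendon markers Fmod alone passed, higher in males, and their median was 0.45. Of 8 heart muscle markers none passed, and their median was -0.02. The part of these markers in the collagen result was not tested. In bulk libraries such as these, fewer cells of a type and less RNA per cell cannot be told apart.

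More collagen genes passed by litter than by sex. In the test of all 4 litters together, 21 of 28 collagen genes (75%) passed, against 32.1% of all genes tested (edgeR with sex in the model, Benjamini-Hochberg adjustment). They were 5 of 8 fibrillar, 5 of 6 type IV and 11 of 14 other genes. Without litter 3, 13 of 30 collagen genes then tested passed, and 1898 of all 13899 genes: Col1a2, Col3a1, Col5a1, Col5a2, Col4a1, Col4a2, Col4a5, Col6a1, Col6a2, Col6a3, Col15a1, Col18a1 and Col23a1. Col1a1 was then at an adjusted p of 0.0783, and its range over litters was 0.39 on the log2 scale in place of 2.04.

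Set against the mean of the other litters, litter 3 had 16 of 28 collagen genes lower and 4 higher, and 12 of these 20 kept their call in every alternative run. The background shares in this comparison were the 14.8% lower and 13.6% higher given above. All 5 fibrillar genes that passed were lower, with log2 fold changes of -1.83 ± 0.12 for Col1a1, -2.10 ± 0.13 for Col1a2, -2.06 ± 0.12 for Col3a1, -1.55 ± 0.13 for Col5a1 and -1.002 ± 0.12 for Col5a2 (SE; edgeR, adjusted p 1.32e-06 for Col3a1 to 0.000118 for Col5a2). Col3a1 was thus 4.17-fold and Col5a2 2.00-fold lower. The 2 libraries of litter 3 lay below all 6 others for 15 of the 28 genes, against 16.4% of all genes tested, and above all others for 4, against 15.1%. Without the female of litter 3, the library with the fewest counts, 13 of 30 collagen genes then tested passed, 12 lower and 1 higher, and over all 13981 genes 973 were lower and 731 higher.

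**Figure D3:**
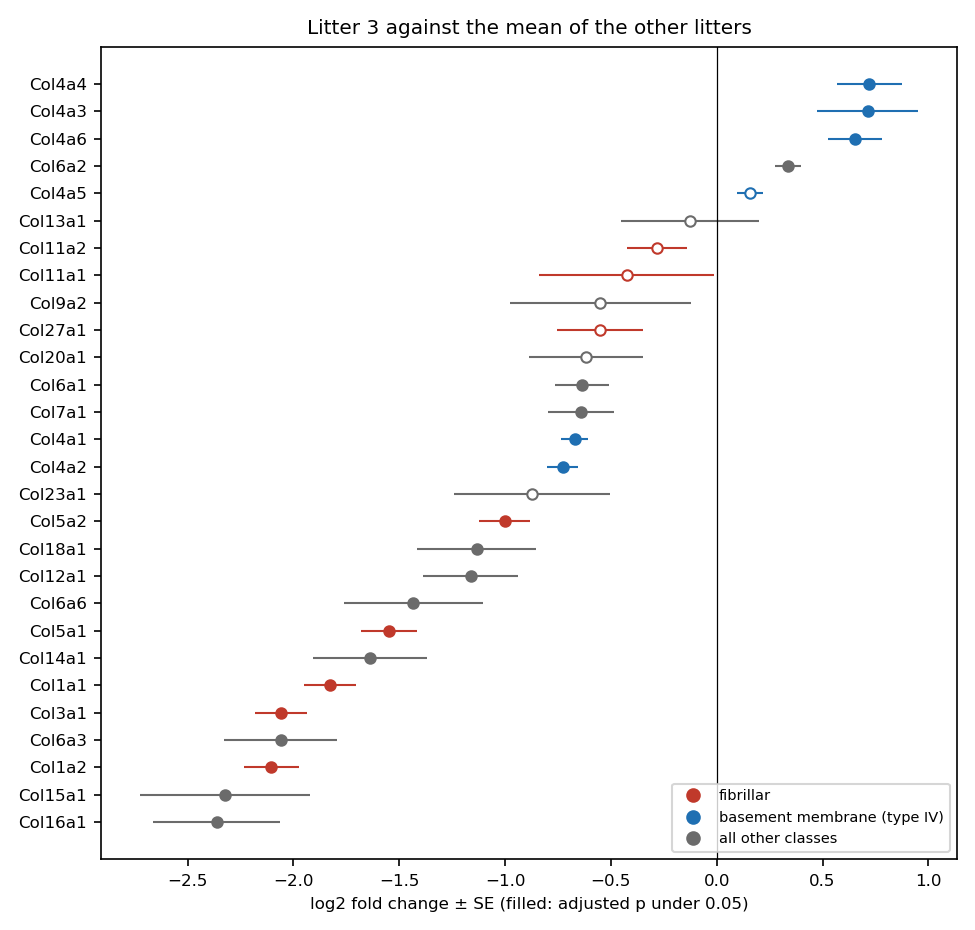
Log2 fold change of litter 3 against the mean of the other litters, ± SE, for the 28 tested collagen genes; filled points passed an adjusted p of 0.05. Col16a1, Col15a1, Col1a2, Col6a3 and Col3a1 lie below -2, and Col4a3, Col4a4, Col4a6 and Col6a2 are the genes above 0 that passed.

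Of the type IV genes, Col4a1 and Col4a2 were lower in litter 3, and Col4a3, Col4a4 and Col4a6 were higher, but none of those 3 passed without its female. Col4a1 and Col4a2 encode the chains of the common type IV network. Col4a1 (chr8:11198423-11312826) had 346, 413, 231 and 289 CPM in the males of litters 1 to 4 and 387, 472, 228 and 319 CPM in the females. Col4a2 (chr8:11312805-11449287) had 444, 475, 279 and 354 CPM in the males and 488, 573, 272 and 441 CPM in the females. Both libraries of litter 3 were below the 6 others for both genes, and the female was above the male in litters 1, 2 and 4. The fall in litter 3 was -0.67 ± 0.06 for Col4a1 (SE, 1.59-fold, adjusted p = 1.99e-05) and -0.73 ± 0.07 for Col4a2 (1.66-fold, adjusted p = 3.39e-05; edgeR). The difference between the sexes with litter as a block was -0.12 ± 0.05 and -0.17 ± 0.06 and did not pass (adjusted p = 0.414 and 0.335).

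Col4a5, on the X chromosome (chrX:141475385-141689234), encodes a chain of minor type IV networks and was nearly level. It had 177, 185, 184 and 150.4 CPM in the males of litters 1 to 4 and 184, 166, 188 and 143 CPM in the females. Litter 4 was lowest for both sexes, and litter 3 overlapped the rest. Litter 4 was lower than the mean of the others by -0.30 ± 0.06 (SE; edgeR, adjusted p = 0.0137), while litter 3 was at 0.16 ± 0.06 (adjusted p = 0.0723, or 0.0253 when scaled by library size alone). Males and females averaged 174 ± 16.1 and 170.4 ± 20.4 CPM (SD, n = 4 each).

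The remaining type IV genes were low and higher in litter 3. Col4a6, which partners Col4a5 in smooth muscle basement membranes, had 6.94, 9.89, 11.7 and 8.09 CPM in the males of litters 1 to 4 and 7.93, 7.91, 14.2 and 8.47 CPM in the females. Col4a4 reached 6.199 and 6.87 CPM in litter 3, against 3.12 to 5.03 elsewhere, and Col4a3 3.47 and 3.02 against 1.48 to 2.65. Their products join Col4a5's in the network best known from the kidney filter. For all 3 genes both libraries of litter 3 lay above the other 6. The log2 fold change in litter 3 was 0.65 ± 0.13 for Col4a6, 0.72 ± 0.15 for Col4a4 and 0.71 ± 0.24 for Col4a3 (SE; edgeR, adjusted p = 0.00296, 0.00491 and 0.0427). Without the female of litter 3 none of the 3 passed, at 0.50 for Col4a6, 0.64 for Col4a4 and 0.72 for Col4a3 (adjusted p = 0.0766, 0.0739 and 0.184). Without the male, Col4a3 did not pass (adjusted p = 0.226), and it kept its call in 5 of 11 alternatives. Exons of Col4a3 overlap those of a gene on the opposite strand over 5.6% of their length, and whether counting used strand is not given in the sources used here.

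The type IV genes lie in head-to-head pairs. The starts of 2 pairs are shown from RefSeq (GRCm38.p6), because both members of the first were lower in litter 3 by similar amounts, while of the second only Col4a6 passed there. Col4a1 on the minus strand and Col4a2 on the plus strand share 22 transcribed bases at chr8:11312805-11312826, printed from the plus strand. Col4a5 and Col4a6 start 1342 bases apart; their 250 bases before the start lie at chrX:141475169-141475418 on the plus strand and chrX:141474077-141474326 on the minus strand. The end of the Col4a5 window lies inside the GENCODE span of the gene, which starts at chrX:141475385. Capitals mark the same 3 motifs as above.
Col4a1 and Col4a2: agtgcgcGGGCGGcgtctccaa
Col4a5: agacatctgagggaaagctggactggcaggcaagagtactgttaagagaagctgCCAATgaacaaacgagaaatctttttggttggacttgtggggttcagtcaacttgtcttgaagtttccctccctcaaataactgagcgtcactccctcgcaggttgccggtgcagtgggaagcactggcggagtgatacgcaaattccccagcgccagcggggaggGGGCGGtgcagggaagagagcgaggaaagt
Col4a6: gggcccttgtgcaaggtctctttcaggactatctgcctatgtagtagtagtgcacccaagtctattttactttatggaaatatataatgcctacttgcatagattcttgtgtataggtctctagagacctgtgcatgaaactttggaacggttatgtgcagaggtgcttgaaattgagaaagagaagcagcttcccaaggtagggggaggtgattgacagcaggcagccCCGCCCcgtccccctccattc
The ratio of Col4a1 to Col4a2 varied least of these pairs. Per kilobase of the longest transcript, Col4a1 stood at 0.7062 to 0.8481 of Col4a2 in the 8 libraries, and litter 3 lay inside the range of the others. Col4a5 was 13.54 to 15.90 times Col4a6 in litter 3 and 17.20 to 25.91 times in the other litters. The third pair, Col4a3 and Col4a4, starts 71 bases apart in GENCODE, and its ratio varied most of the 3, from 0.422 to 0.9396, with litter 3 inside the range of the others.

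Type VI collagen is made of 3 different chains, and in litter 3 Col6a2 was higher and Col6a1 and Col6a3 were lower. Col6a1 had 10.7, 17.2, 9.93 and 13.1 CPM in the males of litters 1 to 4 and 11.8, 15.4, 7.22 and 13.6 CPM in the females, with litter 3 lowest. Col6a2 had 69.1, 85.8, 103.8 and 92.4 CPM in the males and 71.5, 91.7, 103.2 and 84.5 CPM in the females, with litter 3 highest and litter 1 lowest. Col6a3 had 4.53, 8.43, 1.65 and 5.64 CPM in the males and 4.52, 6.02, 0.756 and 2.68 CPM in the females, with litter 3 lowest. In litter 3 the log2 fold change was -0.64 ± 0.13 for Col6a1, 0.34 ± 0.06 for Col6a2 and -2.06 ± 0.27 for Col6a3 (SE; edgeR, adjusted p = 0.00342, 0.00235 and 0.000209). Without the female of litter 3, Col6a1 was at -0.44 (adjusted p = 0.0717). Col6a6, a chain that can stand in for Col6a3, had 2.09, 3.37, 1.26 and 3.07 CPM in the males and 1.11, 1.17, 0.275 and 1.97 CPM in the females. Its male exceeded its female in every litter, and it was lower in litter 3 by -1.43 ± 0.33 (adjusted p = 0.00726; edgeR). That value was -1.16 without the female of litter 3, where it did not pass (adjusted p = 0.0604), and -2.31 without the male (adjusted p = 0.0263).

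Ratios between 2 collagen genes within a library need no scaling between libraries. Col1a1 stood at 0.8888 to 1.272 of Col1a2 per kilobase of the longest transcript, with the male of litter 3 highest and the other 7 libraries at 0.8888 to 1.074, while both genes were lower in litter 3, by 3.55-fold and 4.30-fold. Col5a1 to Col5a2 varied more, from 0.3557 to 0.8625. Col6a1 to Col6a2 was 0.0838 and 0.1146 in litter 3 and 0.1693 to 0.2402 elsewhere. Col6a3 to Col6a1 was 0.0425 and 0.0673 in litter 3 and 0.0799 to 0.1989 elsewhere. Col4a5 to Col4a1 was 0.8031 and 0.8364 in litter 3 and 0.3566 to 0.5259 elsewhere. Col3a1 to Col4a1, a fibrillar against a basement membrane gene, was 0.0491 and 0.0720 in litter 3 and 0.1089 to 0.2453 elsewhere. In the last 4 of these ratios litter 3 did not overlap the other litters. Col6a2 alone held 11.43% and 11.72% of collagen counts in litter 3, against 5.489% to 8.074% in the other libraries.

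**Figure D4:**
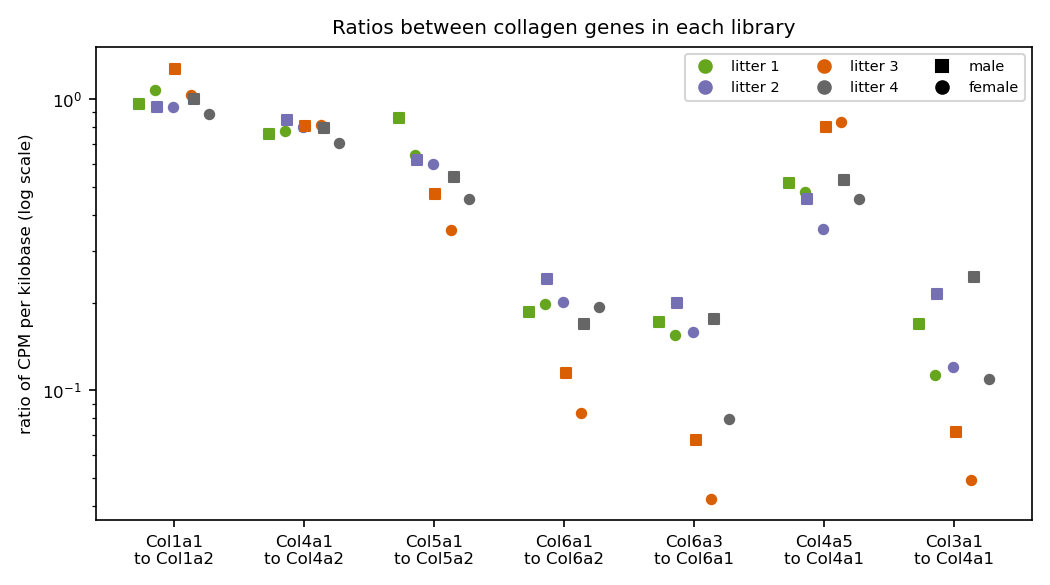
Ratio of CPM per kilobase of the longest transcript between 2 collagen genes in each library, on a log scale; colour gives the litter, squares are males and circles females. Litter 3 lies inside the others for Col4a1 to Col4a2, and apart from them for the last 4 ratios.

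Among the other classes, 3 of 5 tested FACIT genes were lower in litter 3, none higher. Col12a1 had 3.29, 4.07, 1.73 and 4.91 CPM in the males of litters 1 to 4 and 1.81, 2.02, 0.962 and 2.22 CPM in the females. Col14a1, which also binds fibril surfaces, had 3.37, 4.36, 1.17 and 3.46 CPM in the males and 2.34, 2.79, 0.687 and 1.38 CPM in the females. Litter 3 was lowest in both, and the male was higher in all 4 litters. Litter 3 differed from the other litters by -1.16 ± 0.22 for Col12a1 and -1.64 ± 0.27 for Col14a1 (SE; edgeR, adjusted p = 0.00274 and 0.00105). Without the male of litter 3, Col12a1 did not pass (-1.06, adjusted p = 0.0846). Col16a1, another FACIT gene, had 0.607 and 0.481 CPM in litter 3 and 1.81 to 4.20 elsewhere, a change of -2.36 ± 0.30 (adjusted p = 0.000169; edgeR).

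The 2 multiplexin genes, whose products lie next to basement membranes, differed from the FACIT genes in which libraries were high. Col18a1, the source of the fragment endostatin, had 5.62, 17.5, 6.24 and 10.3 CPM in the males of litters 1 to 4 and 10.8, 23.9, 3.57 and 6.96 CPM in the females. Col15a1 had 5.37, 7.23, 1.08 and 3.96 CPM in the males and 7.93, 13.9, 1.17 and 1.64 CPM in the females. The female of litter 2 was highest for both, and neither gene was always higher in 1 sex. Both passed as lower in litter 3 than in the mean of the others, at -1.14 for Col18a1 and -2.32 for Col15a1 (edgeR). Col18a1 was at -0.70 without the female of litter 3 and at -1.80 without the male. Litter 2 was above the mean of the other litters by 1.53 ± 0.22 for Col18a1 and 1.91 ± 0.28 for Col15a1 (SE; edgeR, adjusted p = 0.00207 and 0.00208). Endothelial markers were also highest there: they summed to 92.7 and 166.8 CPM in the male and female of litter 2 and to 18.6 to 69.7 in the other 6 libraries, and 10 of 10 were higher in litter 2. Their part in the result was not tested. The rest of the other classes were low. Col7a1, which anchors epithelial basement membranes, ranged from 3.77 to 7.73 CPM and was lower in litter 3 by -0.64 ± 0.16 (adjusted p = 0.00969; edgeR), but not without its male or its female (adjusted p = 0.0816 and 0.0706). Col23a1, a transmembrane collagen, ranged from 0.481 to 3.07 CPM and was higher in litter 2 by 1.65 ± 0.28 (adjusted p = 0.00591; edgeR). Col9a2, Col13a1 and Col20a1 ranged from 0.329 to 2.43 CPM and passed neither by litter nor by sex.

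**Figure D5:**
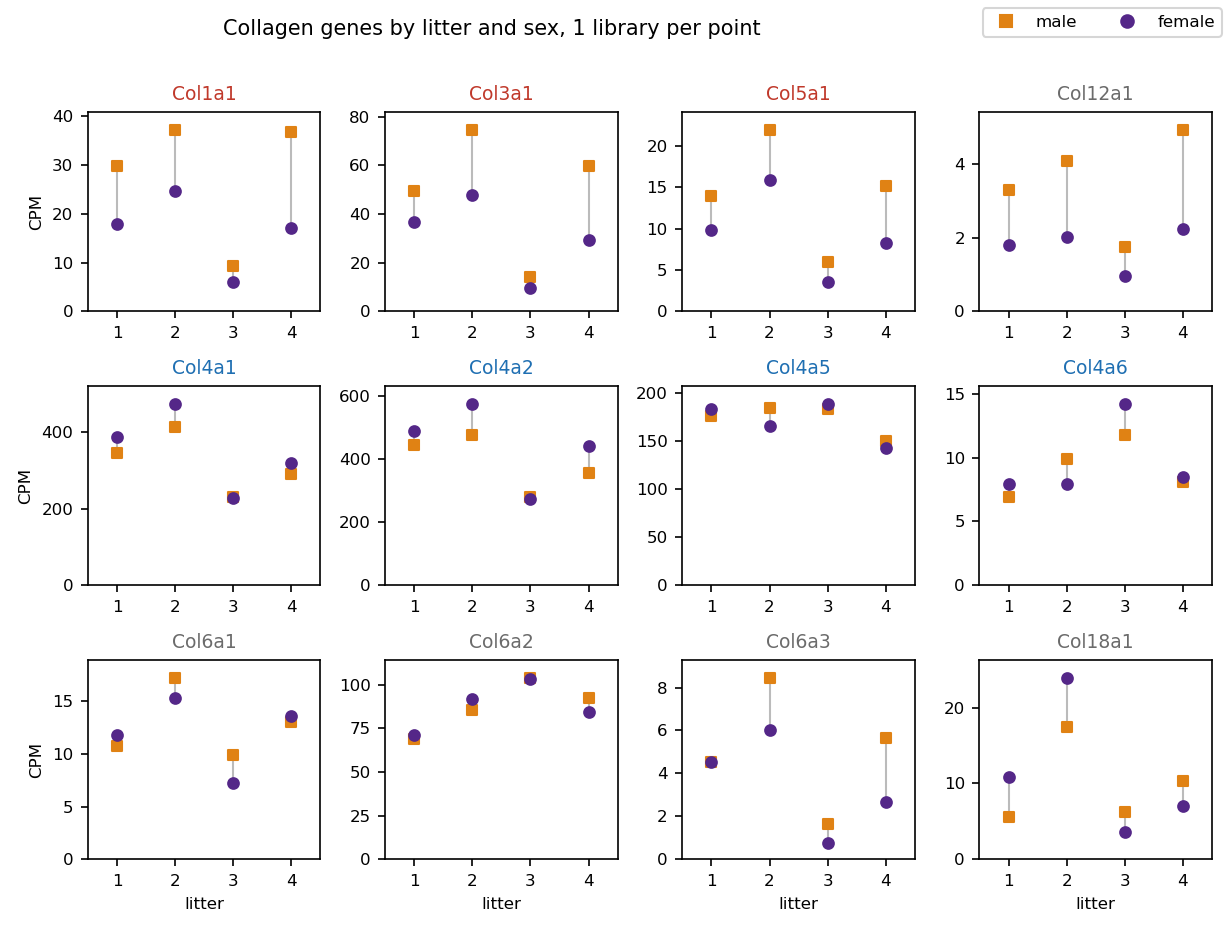
CPM of 12 collagen genes by litter, 1 point per library, with squares for males, circles for females and a line joining the 2 of a litter; titles are red for fibrillar, blue for type IV and grey for other classes. Litter 3 is lowest for Col1a1, Col3a1, Col5a1, Col12a1, Col4a1, Col4a2, Col6a1 and Col6a3, highest for Col4a6 and Col6a2, and overlaps the rest for Col4a5 and Col18a1.

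The other litters moved fewer collagen genes, in comparisons that share libraries with that of litter 3 and are not independent of it. Litter 2 had 14 of 28 higher and 0 lower, against 3.3% and 0.879% of all genes tested; Col3a1 was at 1.12 ± 0.09, Col5a1 at 1.13 ± 0.10 and Col4a1 at 0.58 ± 0.06 (SE; edgeR). Litter 1 had 7 higher and 2 lower, against 7.86% and 5.41%, and the 2 lower genes were Col4a4 and Col6a2. Litter 4 had 6 higher and 1 lower, against 4.71% and 5.8%; Col1a2 was at 0.69 ± 0.10, and Col4a5 was the lower gene. These counts fell when single libraries were left out, and so did those over all genes. Litter 2 had 7 genes left without its female, litter 1 had 1 left without either of its libraries, and litter 4 had 3 left without its female. Without its male litter 4 had 1, a lower gene that was not among the 7. Over all genes tested, the calls went from 575 to 153 in litter 2 without its female, from 1827 to 359 and 411 in litter 1 without its male and its female, and from 1447 to 433 and 322 in litter 4 without its female and its male. Mitochondrial genes made up 18.46% of counts in the litter 4 male and 13.43% to 15.20% in the other 7 libraries, and its TMM scaling factor, 0.9507, was the lowest. The part of this in the litter 4 counts was not tested. Fibroblast markers moved in litters 2 and 4 as well: 4 of 8 were higher in litter 2 and 4 of 8 in litter 4, with medians of 0.72 and 0.39. Of 8 mural markers 4 were higher in litter 2, with a median of 1.03, and in litter 4 2 were higher and 1 lower. Of 8 heart muscle markers none passed in litter 2, while in litter 4 3 were higher and 2 lower. The part of these markers in the result was not tested.

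Markers of other cells moved with litter 3 as well. Of 8 fibroblast markers, 5 were lower there and 0 higher, with a median log2 fold change of -1.18. The 5 were Postn, Dcn, Dpt, Lum and Ddr2. Of those that did not pass, Pdgfra was at 0.30 ± 0.23, Vim at -0.05 ± 0.12 and Tcf21 at -0.60 ± 0.43 (SE, edgeR). The 8 markers summed to 129.9 to 133.0 CPM in litter 3 and 142.4 to 231.1 elsewhere. Of 10 endothelial markers 7 were lower and 0 higher, with a median of -1.45. Their sum of 19.98 to 20.97 CPM lay inside the range of the other litters. Of 8 mural markers 5 were lower, with a median of -1.56. Their sums, most of them Acta2 and Abcc9, were 897 to 920.0 CPM against 1337 to 1515. Acta2 had 369 and 343 CPM in the male and female of litter 3, against 804 to 1036 CPM elsewhere. Abcc9 had 476 and 481 CPM there, against 391 to 510, and did not pass. Pdgfrb, Rgs5, Notch3 and Myh11, also lower, each had at most 11.95 CPM in any library. Of 8 heart muscle markers 3 were lower and 0 higher, and their sum was 54840 to 55250 CPM in litter 3 and 59300 to 69460 elsewhere. The 6 valve and tendon markers summed to 12.3 to 12.9 CPM in litter 3 and 12.4 to 19.9 elsewhere, most of it Scx, and Tnmd was at 0 in every library. Of the 3 tested, Fmod and Sox9 were lower in litter 3, with a median of -1.70. Of the tested markers of epicardial, neural, macrophage and red blood cells, 3 were higher in litter 3 and 1 was lower. Among the higher ones were 2 of red blood cells, Hbb-bt and Alas2. Hbb-bt had 59.6 CPM in the male and 19.1 CPM in the female of litter 3, against 9.61 to 23.2 CPM elsewhere. Alas2 had 18.2 and 7.84 CPM there, against 3.14 to 7.48. The red blood cell markers summed to 528.4 CPM in that male and 183.5 in that female, against 97.58 to 243.2 elsewhere. The part of these markers in the collagen result was not tested.

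Genes that modify, fold, cut and bind collagen were counted from 7 lists of 67 genes, of which 55 were tested. Dcn, Lum and Ddr2 are also among the fibroblast markers above, and Fmod among the valve and tendon markers. The counts of those markers and of these lists are therefore not independent. By litter 32 of the 55 passed, against 32.1% of all genes tested. In litter 3, 24 were lower, against 14.8%, and against 13.6% of all genes 1 was higher: Timp3, an inhibitor of matrix proteases, at 0.83 ± 0.19 (SE; edgeR, adjusted p = 0.0076). Timp3 had 138.6 CPM in the male and 233.9 CPM in the female of litter 3, against 82.3 to 139.9 CPM elsewhere. Only the female thus lay above the other litters. Timp3 was named after its value was seen. With litter as a block, 3 of the 55 were higher in males, against 0.152%, and none lower.

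The lists for steps within the cell had few members lower in litter 3, with counts near the share of all genes: 3 of 14 tested for prolyl and lysyl modification and 2 of 9 for folding and secretion. Their medians were -0.08 and -0.004. Among the lower genes were P4ha1, a subunit of prolyl 4-hydroxylase, at -0.75 ± 0.10 and Plod1, a lysyl hydroxylase, at -0.47 ± 0.08 (SE; edgeR, adjusted p = 0.000333 and 0.00184). Serpinh1, the collagen chaperone HSP47, had 298, 292, 214 and 353 CPM in the males of litters 1 to 4 and 312, 347, 205 and 344 CPM in the females. Litter 3 was lowest, at -0.62 ± 0.07 (adjusted p = 7.3e-05; edgeR). Fkbp10, a second chaperone, was at 0.18 ± 0.06 (adjusted p = 0.0504).

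Outside the cell, 3 of 6 tested genes of propeptide processing were lower in litter 3, Pcolce2 at -0.87 ± 0.21 among them (SE; edgeR). Of 5 tested crosslinking genes 4 were lower. Among them were Lox, which crosslinks fibrils, at -2.52 ± 0.41, and Pxdn, which crosslinks type IV collagen, at -0.62 ± 0.08. Lox was low, with 0.217 and 0.412 CPM in the male and female of litter 3 and at most 62 counts in any library. Of 8 fibril partners 7 were lower, with Dcn at -1.98 ± 0.15, Bgn at -2.09 ± 0.14 and Fn1 at -1.83 ± 0.17. Dcn and Bgn encode proteoglycans that coat fibrils, and Fn1 the fibronectin on which fibrils assemble. Dcn, Bgn and Fmod were also the 3 genes higher in males with litter as a block, at 1.14 ± 0.11, 0.82 ± 0.10 and 1.97 ± 0.33. Fmod was low, with 0.205 to 0.881 CPM in the females and at most 43 counts in any library. Its adjusted p was 0.0407 (edgeR with litter as a block). Of 8 turnover genes 4 were lower, including Timp2 and Mmp2. Of 5 tested collagen receptors 1 was lower, Ddr2, a count near the share of all genes. The median over the 55 genes was -0.28 in litter 3 and 0.03 between the sexes, against 0.0001 and -0.0008 over all genes tested.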

How the data were processed

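Counts per gene were deposited by the authors as 1 table of whole numbers for 8 libraries, with 0 columns of other samples. Reads were aligned with STAR 2.7.3a to mm10, per the submitters' processing notes; the counting program, annotation and strand setting are not given in the sources used here. The labels name polyA RNA as the molecule and a stranded total RNA kit in the protocol. Counts were scaled by TMM and tested with edgeR 4.0.16 in R 4.3.3 (quasi-likelihood F test, filterByExpr by sex, Benjamini-Hochberg over 13771 genes, threshold 0.05): males against females, the same with litter as a block, all litters together, and each litter against the mean of the others, the last 2 with sex in the model. The block left 3 residual degrees of freedom in place of 6. The labels give the number of a sample as its litter, which pairs the samples, and siblings deviated together (r = 0.367 to 0.696, against -0.482 to 0.27 across litters). Libraries of 1 sex differed by 9.6 to 44.9 times sampling noise (chi-square per degree of freedom), so none repeats another. Exon lengths and overlaps came from GENCODE for GRCm38, the assembly also named mm10, which held all 44 genes, and promoter windows from RefSeq GRCm38.p6. Alternatives were DESeq2 1.42.0, other scaling, other filters, and leaving out each library or litter; thinning every library to 14226342 counts and leaving out mitochondrial genes were added after the data were seen. The edgeR steps were tested on simulated data. Values in every library are given for tested genes past a threshold that were among the 3 highest per kilobase of their class, or had 1 of the 8 smallest p-values by litter or by sex with the block; of the list genes, at most 3 per list by p-value. Other tested collagen genes named fall outside that rule and were named after their values were seen. The collagen genes, their classes and the other lists were chosen with earlier results of these data known.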

Additional observations from a re-analysis of the deposited data

Results flagged for a closer look

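In 64 groups of 4 libraries, formed by sex for each tested collagen gene and each class sum, 2 had a library far from the others, where chance flags about 1 in 20 groups, or 3.2 of 64. Col4a6 in the female of litter 3 was 14.2 CPM, against 7.91 to 8.47 CPM in the other 3 females. The summed level of the 27 genes of other classes in the female of litter 2 was 174.2 CPM, against 126.7 to 131.2 CPM in the other 3 females.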

How the results depend on the processing

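The count by sex was 5 with litter as a replicate block in place of 0. With the block it was 11 without a filter on low counts, 10 higher and 1 lower in males, while calls over all genes went from 29 of 13771 to 350 of 24853. It was 3 after thinning, against 25 of all 12977 genes. It was 3 to 4 when a litter was left out, against 25, 22, 44 and 24 over all genes without litters 1, 2, 3 and 4. The count by litter ranged from 13 to 21 when a litter or library was left out. It was 13 without litter 3 and 21 without litter 2. Over all genes, calls by litter went from 4427 of 13771 to 1898 of 13899 without litter 3. Without litter 2 they were 4586 of 13740. Leaving out single libraries gave 1 to 9 genes in litter 1, 7 to 14 in litter 2, 13 to 22 in litter 3 and 1 to 6 in litter 4, and 0 by sex. Calls over all genes fell as well, from 1827 to as few as 359 in litter 1, 575 to 153 in litter 2, 3903 to 1704 in litter 3 and 1447 to 322 in litter 4. Without a filter, litter 4 had 12, and 2072 over all genes in place of 1447. Scaling by library size alone gave litter 4 a split of 4 higher and 2 lower in place of 6 and 1, while all genes in litter 4 went from 648 higher and 799 lower to 262 and 1501. It gave all genes in litter 3 a split of 2419 higher and 1698 lower in place of 1871 and 2032. By the longest transcript, the positions of Col1a1, Col6a1, Col5a2 and Col1a2 by level became 7, 8, 9 and 6. Without mitochondrial genes in the denominator the collagen share was 0.1416%. Of 60 alternative values for the 5 genes called between the sexes with the block, 45 kept their call and 15 lost it; of 238 for the 20 genes called in litter 3, 224 kept their call and 14 lost it, 6 of them of Col4a3, and none of either changed direction. Col18a1 in litter 3 was at -0.70 without its female (adjusted p = 0.1517). With 2 libraries per litter, and 14226342 counts in the shallowest, the lowest libraries of some genes rest on few counts, such as 4 for Col6a6 and 11 for Col6a3. Leaving out 1 library of a litter leaves 1, which is then assumed to vary like the others.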
